A study of Mus musculus with 298 samples.

Results

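The 6 haemoglobin genes described here are Hba-a1 and Hba-a2, which encode the adult alpha chains, Hbb-bs and Hbb-bt, which encode the adult beta chains, and Hbq1a and Hbq1b, the theta globin genes of the alpha cluster. They were chosen by name as the adult haemoglobin genes among the 14605 genes of the table, and all 6 were measured. RNA was sequenced from serial blood samples of 20 mice, taken weekly for up to 18 weeks, in the TOTO cohort weekly to week 8 and then at weeks 12, 16 and 18. The protocol gives whole blood as the starting material, while the source label reads PBMC (peripheral blood mononuclear cells), and red cell RNA was abundant in nearly all libraries.

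All mice were male or female C57BL/6 animals, 6 to 8 weeks old, of the genotype tTA+/-, BCR-ABL+/- (SCLtTA/BCR-ABL). In this model of chronic myeloid leukaemia the SCL (Tal1) stem cell enhancer drives the tetracycline transactivator, and the BCR-ABL oncogene is silent while tetracycline is in the drinking water (0.5 g/L). Control mice (3, with 57 libraries) kept drinking it, and carry both alleles too. In the CML cohort (6 mice, 94 libraries) tetracycline was withdrawn, called Tet-off, so that BCR-ABL could be expressed throughout. In the TOTO cohort (4 mice, 48 libraries) the Tet-off state lasted until week 6 and tetracycline was then returned. In the TKI cohort (7 mice, 99 libraries) the mice were Tet-off throughout and received nilotinib, a BCR-ABL kinase inhibitor, by daily oral gavage at 50 mg/kg from week 6 to week 10. The deposited unit is TPM, the length-normalised share of a gene among all transcripts of a library. Mice are the replicates, and the weekly libraries of a mouse are repeats on that mouse.

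Haemoglobin carries oxygen as a tetramer of alpha-type and beta-type chains, each holding a haem group. Its genes are switched on in erythroblasts, and circulating reticulocytes, the youngest red cells, still hold the messenger RNA after the nucleus is lost. Blood RNA is therefore dominated by globin transcripts unless they are removed. Theta globin is a sparsely expressed member of the alpha cluster for which no part in oxygen transport is established.

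In the GRCm39 annotation the alpha and theta genes alternate on the forward strand of chromosome 11. Hba-a1 lies at chr11:32233186-32234504, Hbq1b at chr11:32236914-32237912, Hba-a2 at chr11:32246168-32247320 and Hbq1a at chr11:32250067-32254086. The beta genes are on the reverse strand of chromosome 7, Hbb-bs at chr7:103475730-103482989 and Hbb-bt at chr7:103461727-103465047. The transcript of each gene used for the sequence comparison has 3 exons. The alpha copies differ at 1 of 426 coding bases, C381T (Hba-a1 base, position counted from the A of the start codon, Hba-a2 base), the third base of codon 127. The beta copies also differ at 1 base, C417T of 441, the third base of codon 139. The 31-base windows around these positions are shown because they are where reads from the coding part can tell the copies apart, and the capital marks the differing base.
Hba-a1: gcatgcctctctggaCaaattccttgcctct
Hba-a2: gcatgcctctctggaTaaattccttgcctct
Hbb-bs: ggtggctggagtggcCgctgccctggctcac
Hbb-bt: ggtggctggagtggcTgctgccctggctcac

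Of all 31-base stretches in a transcript, 17.2% in Hba-a1 and 5.02% in Hba-a2 were found in no other member, against 36.9% in Hbb-bs, 40.7% in Hbb-bt, 55.2% in Hbq1a and 55.8% in Hbq1b. The split between Hba-a1 and Hba-a2 thus rests on few distinguishing positions, and the alpha, beta and theta sums are given beside the copies throughout.

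The promoters are shown because the 4 major genes and the theta genes differ in level by several orders of magnitude. Each run is the 120 bases before the RefSeq transcript start (GRCm38.p6, gene strand), and capitals mark the TATA box letters TATAA, the CCAAT box, which reads ATTGG where it lies on the other strand, and the CACCC box. The windows are chr11:32283552-32283671 for Hba-a1, chr11:32296372-32296491 for Hba-a2, chr7:103827929-103828048 for Hbb-bs, chr7:103813924-103814043 for Hbb-bt, chr11:32299949-32300068 for Hbq1a and chr11:32286844-32286963 for Hbq1b.
Hba-a1: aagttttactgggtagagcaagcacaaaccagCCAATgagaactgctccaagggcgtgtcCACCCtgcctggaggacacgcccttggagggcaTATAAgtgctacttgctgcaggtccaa
Hba-a2: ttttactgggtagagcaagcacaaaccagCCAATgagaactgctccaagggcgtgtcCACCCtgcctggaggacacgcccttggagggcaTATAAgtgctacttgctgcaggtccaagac
Hbb-bs: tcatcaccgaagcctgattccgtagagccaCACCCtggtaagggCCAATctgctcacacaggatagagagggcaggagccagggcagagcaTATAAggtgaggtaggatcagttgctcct
Hbb-bt: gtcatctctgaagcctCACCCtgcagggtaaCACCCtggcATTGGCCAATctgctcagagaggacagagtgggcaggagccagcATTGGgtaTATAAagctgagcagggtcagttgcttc
Hbq1a: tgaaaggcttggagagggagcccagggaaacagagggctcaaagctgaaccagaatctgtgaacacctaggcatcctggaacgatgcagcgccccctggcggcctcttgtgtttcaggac
Hbq1b: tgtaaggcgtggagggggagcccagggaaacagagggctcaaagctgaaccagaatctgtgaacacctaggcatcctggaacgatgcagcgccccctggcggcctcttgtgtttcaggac

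Both alpha and both beta windows hold all 3 motifs, with TATAA 27 to 30 bases before the start, and the theta windows hold none of them. Searched on both strands, the 3 motifs occur together in 0.69% of 32851 mouse promoter windows of this length, TATAA alone in 11.85%, CCAAT in 21.29% and CACCC in 31.71%. Neither AGATAA nor TGACTCA, the letters of GATA and NF-E2 sites, occurs in any of the 6 windows (4.36% and 2.3% of all windows). The alpha windows are identical over the 117 bases they share, the theta windows match at 117 of 120 bases (97.5%), and the beta windows at 88 of 119 (73.95%). A letter match is a description and shows no binding.

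Hbb-bs had the highest level in the blood, with a median of 183164 TPM over all libraries (1358 to 350418). Hba-a2 followed with 138662 TPM (1185 to 257576), then Hba-a1 with 63089 (539 to 132038) and Hbb-bt with 29201 (225 to 61162). The theta genes were lower by several orders of magnitude, at a median of 16.6 TPM for Hbq1b (0 to 41.9) and 7.34 TPM for Hbq1a (0 to 21.4). The ranges of neighbouring genes in this order overlap widely across libraries, except between Hbb-bt and Hbq1b, which do not overlap. The embryonic beta-like gene Hbb-y reached at most 3.26 TPM, and Hbb-bh0 was listed at 0 in 252 libraries and reached at most 1.77 TPM.

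The 6 members together held a median of 42.6% of all TPM, from 0.331% to 74.8%, with medians of 20.4% for the alpha pair and 21.5% for the beta pair. The other large component was Rn7s2, a 7SL RNA of the signal recognition particle, with a median of 31.7% (14.5% to 56.0%). Because TPM of a library sum to a constant, a lower haemoglobin share raises every other gene, and in bulk blood fewer red cells and less RNA per red cell cannot be told apart. The fusion transcript was listed at 0 in 49 of 57 control libraries and in 13 of 17 Tet-off libraries at week 0. Its median in weeks 3 to 6 was 4.08 TPM in the TKI and 2.85 TPM in the TOTO cohort, and 1.29 TPM in CML mice other than 487. CML mouse 487 goes against its label, with the fusion at 0 TPM in 14 of its 16 libraries from week 3 on and a maximum of 0.409 TPM. The week 17 library of control mouse 490 stands apart from the rest, with 2552 genes at 1 TPM or more, 56.0% Rn7s2, 13.7% haemoglobin and both theta genes at 0.

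Averaged per mouse over its libraries, the haemoglobin share was highest in the control cohort (52.1% ± 7.97, SD, n = 3 mice) and lowest in the TKI cohort (32.6% ± 5.07, n = 7). TOTO (41.5% ± 4.00, n = 4) and CML (40.1% ± 10.4, n = 6) lay between them. The 7 TKI mice ranged from 25.9% to 41.1% and lay below the 3 control mice, which ranged from 43.6% to 59.4%. CML mice ranged from 27.4% to 56.2% and overlapped every other cohort, the highest being mouse 487 with its fusion transcript near 0. With Rn7s2 left out of the denominator the cohort means were 68.1%, 50.7%, 58.4% and 57.8% for control, TKI, TOTO and CML, in the same order. The share was a noisy quantity within a mouse: the median SD over the weeks of a mouse was 14.4 percentage points, against 9.45 points between mouse means.

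**Figure D1:**
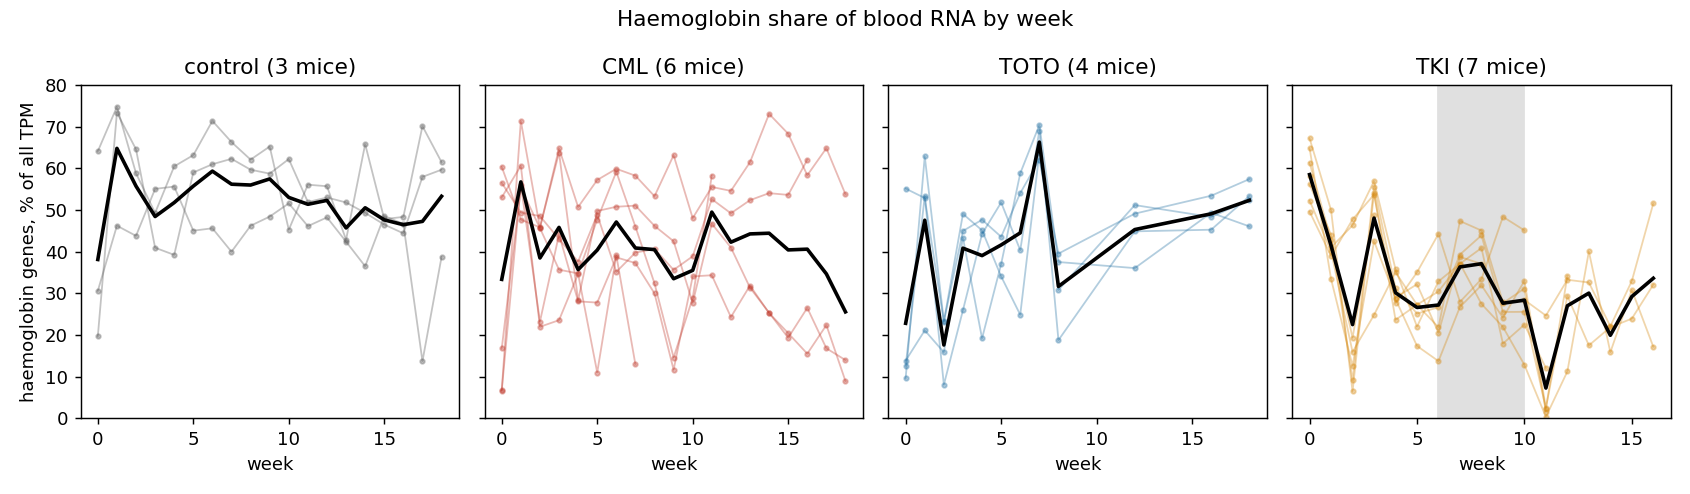
Haemoglobin share of TPM (percent, vertical axis) by week (horizontal axis) in the 4 cohorts, with a thin line for each mouse and a thick line for the cohort mean, and grey shading over the nilotinib weeks. The TKI mean is lowest at week 11, at 7.24%, and the TOTO cohort peaks at 66.3% at week 7.

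Some week-to-week steps went the same way in all mice of a cohort. Of 63 steps between successive sampled weeks with at least 3 mice, 18 went the same way in every mouse, 8 up and 10 down, among them 4 of 18 steps in the control cohort. With as few as 3 mice, steps also agree by chance, and the number to be expected was not worked out. In the TOTO cohort all 4 mice were lower at week 2 (8.04% to 23.2%) than at week 1 (21.1% to 62.9%), and in the CML cohort 6 of 6 and among control mice 3 of 3 were lower. In the TKI cohort 5 of 7 mice were lower at week 2 and 2 were higher. The TKI mice had a mean of 22.5% at week 2 and 48.0% at week 3.

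The starting week was divided. At week 0, 8 libraries held 6.65% to 30.6% haemoglobin and 12 held 49.6% to 67.2%, with no library between. The low values were in 3 of 6 CML, 3 of 4 TOTO and 2 of 3 control mice and in 0 of 7 TKI mice. CML 480 and 487 had 6.65% and 6.74%, TOTO 482, 483 and 476 had 9.63%, 12.6% and 13.8%, CML 484 had 16.7%, and control 489 and 490 had 19.7% and 30.6%. The summed TPM of 5 B cell markers ran from 824 in control 490 to 1716 in TOTO 482 among these libraries, and from 149 in TKI 502 to 415 in CML 542 among the others. The low libraries also detected more genes at 1 TPM or more, from 12061 in control 490 to 13256 in TOTO 482, against 6872 in TKI 502 to 10522 in TOTO 545. The part of white cell content in the division was not tested. Since every comparison with week 0 starts from these values, the comparisons of the alpha and beta sums and of the theta share are also given from week 1.

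Over the first week, in which tetracycline had just been withdrawn from the Tet-off mice, the alpha sum changed by 0.55 ± 0.28 on the log2(TPM + 1) scale (SE, 17 Tet-off mice, limma adjusted p = 0.104) and the beta sum by 0.59 ± 0.29 (adjusted p = 0.0916). Of the 17 mice, 7 were higher and 10 lower. The 3 control mice were all higher, by 0.88 and 0.94 (adjusted p = 0.261 and 0.254). In the limma test 0 of 6 members passed in the Tet-off mice, 3 having an unadjusted p under 0.05, where 4.84% of all genes tested passed. The 7 TKI mice were lower at week 1, 33.4% to 49.9%, than at week 0, 49.6% to 67.2%, and the groups overlap only at mouse 502 in week 1.

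The 6 weeks of BCR-ABL induction left haemoglobin RNA with no common direction across the 17 Tet-off mice. The alpha sum changed by 0.19 ± 0.34 (adjusted p = 0.688) and the beta sum by 0.16 ± 0.36 (adjusted p = 0.763), with 6 mice higher and 11 lower. In this fit 0 of 6 members passed, also before adjustment, where 19.3% of genes passed. The difference from the control mice was -0.58 ± 0.88 for alpha and -0.65 ± 0.93 for beta, and neither passed. From week 1 instead of week 0 the Tet-off mice had -0.35 ± 0.15 and -0.44 ± 0.17 (adjusted p = 0.0941 and 0.0584), the opposite sign, and the difference from control mice was -0.25 ± 0.39 and -0.30 ± 0.43.

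From week 0 to week 6 the means of the 3 Tet-off cohorts, treated alike up to then, differed in sign. In the TKI cohort, before any drug, haemoglobin fell in 7 of 7 mice, the alpha sum by 1.11 ± 0.40 on the log2 scale (adjusted p = 0.0277) and the beta sum by 1.25 ± 0.42 (adjusted p = 0.0188). Their shares at week 0 were 49.6% to 67.2% and at week 6 13.7% to 44.3%, with no overlap. In the TOTO cohort alpha rose by 1.19 ± 0.53 (adjusted p = 0.0425) and beta by 1.35 ± 0.56 (adjusted p = 0.0285), higher in 3 of 4 mice, the exception being 545, whose share went from 55.1% to 24.8%. In the CML cohort alpha rose by 1.05 ± 0.43 (adjusted p = 0.0411) with 3 of 6 mice higher, and beta changed by 0.99 ± 0.45 (adjusted p = 0.0602). Without mouse 487, whose fusion transcript was near 0, CML alpha changed by 0.64 (adjusted p = 0.244). The calls rested on single mice, since those in TKI were lost without 502, 507 or 511 and those in TOTO without 476, 482 or 483. With a batch term or without Rn7s2 in the TPM sum, TKI alpha had -0.98 and -0.79 (adjusted p = 0.139 and 0.0929). From week 1 the alpha changes were -0.62 in TKI, -0.079 in TOTO and -0.23 in CML, all of the same sign, and none passed (adjusted p = 0.218, 1.00 and 0.693).

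By single copies, 5 of 6 members fell in TKI (all but Hbq1b), where 0.217% of genes were called lower. In TOTO 5 of 6 rose (all but Hbq1a; 1.5% of genes called higher), and in CML 4 of 6 rose (Hba-a1, Hba-a2, Hbb-bt and Hbq1b; 0.642% of genes called higher). The median change of all genes tested was 0.63 in TKI, -1.42 in TOTO and -0.84 in CML, opposite in sign to the alpha and beta sums in each cohort. Because TPM sum to a constant, a change of haemoglobin by itself moves the other genes the opposite way. The difference between cohorts passed the test. TKI minus CML was -2.17 ± 0.59 for alpha (adjusted p = 0.00326) and -2.24 ± 0.62 for beta (adjusted p = 0.0034), and 6 of 6 members were called lower (0.489% of genes). TKI minus TOTO was -2.30 ± 0.67 and -2.60 ± 0.70 (adjusted p = 0.00204 and 0.00118), again with 6 of 6 lower (0.733% of genes).

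From week 1 instead of week 0 these differences shrank to -0.39 and -0.40 for TKI minus CML and to -0.54 and -0.71 for TKI minus TOTO, and none passed (adjusted p = 1.00 each). The week 6 shares themselves were lowest in TKI (27.2% ± 9.91, n = 7), against 47.1% ± 11.0 in CML (n = 6), 44.5% ± 15.3 in TOTO (n = 4) and 59.3% ± 13.0 in control mice (n = 3).

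Other red cell genes were counted in the same fits, and differences between cohorts in these counts were not tested. Of 8 measured haemoglobin partners and red cell enzymes, 7 rose in TOTO and 4 in CML, and 0 passed in TKI. Car2, carbonic anhydrase 2, rose by 2.43 ± 0.58 in TOTO and 1.41 ± 0.47 in CML. Of 15 membrane and skeleton genes 8 rose and 1 fell in TOTO, 5 rose and 1 fell in CML, and in TKI 1 rose, the glycophorin gene Gypc, by 1.15 ± 0.30. Among 9 erythroid regulators 6 rose in TKI, led by Nfe2, at 2.07 ± 0.34, and Gata1, at 1.49 ± 0.30, both of which are also expressed in megakaryocytes and platelets. All 6 platelet markers (median 2.39) and all 8 neutrophil markers (median 4.12) rose in TKI as well. In TOTO and CML all 5 B cell and all 6 T cell markers fell, with B cell medians of -3.11 and -1.72. The median of all genes tested was 0.63 in TKI, -1.42 in TOTO and -0.84 in CML, the same direction as these regulators and markers. Their counts are not set against the share of all genes called that way. The part of these other cells in the haemoglobin change was not tested.

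During nilotinib no change of the alpha or beta sum passed the test. The TKI shares were 27.2% ± 9.91 at week 6, 36.3% ± 7.07 at week 7, 37.1% ± 6.55 at week 8, 27.6% ± 9.78 at week 9 and 28.3% ± 9.95 at week 10 (SD, n = 7). Week 10 minus week 6 was 0.03 ± 0.24 for alpha (adjusted p = 0.963) and 0.08 ± 0.24 for beta (adjusted p = 0.9), higher in 4 of 7 mice. In this test 0 of 6 members passed, also before adjustment (5.37% of genes passed). Averaged over weeks 7 to 10 against weeks 3 to 6, the changes were -0.01 ± 0.12 and 0.01 ± 0.12, and TKI minus CML was 0.32 ± 0.18 and 0.21 ± 0.18 (adjusted p = 0.505 and 0.732).

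One week after the drug, at week 11, the haemoglobin share was close to 0 in 4 of the 6 TKI mice sampled. It went from 33.0% to 2.49% in mouse 507, from 25.5% to 2.33% in 508, from 31.1% to 1.61% in 511 and from 12.8% to 0.331% in 512. In mouse 513 it went from 22.5% to 12.1%, and in 502 from 28.4% to 24.6%. Mouse 514 had no library after week 10. These 4 were the only libraries of the series under 5%.

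The major genes were low in the same mice. At week 10 Hbb-bs was 152676 TPM in mouse 507, 146145 in 502, 142774 in 511, 114446 in 508, 102271 in 513 and 58281 in 512. At week 11 it was 119468 TPM in 502, 59260 in 513, 11083 in 507, 9181 in 508, 7849 in 511 and 1358 in 512. Mice 502 and 513 stayed within the week 10 range of these 6 mice, and the other 4 fell below it. Hba-a2, the major alpha copy, had its lowest week 11 values in the same mice, 8656 TPM in 507, 8325 in 508, 5122 in 511 and 1185 in 512. Against week 10, alpha fell by 2.93 ± 0.56 (adjusted p = 0.000172), beta by 3.01 ± 0.59 (adjusted p = 0.000244) and theta by 2.11 ± 0.34 (adjusted p = 2.42e-05), each in 6 of 6 mice. All 6 members were called lower, where 9.14% of genes were.

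**Figure D2:**
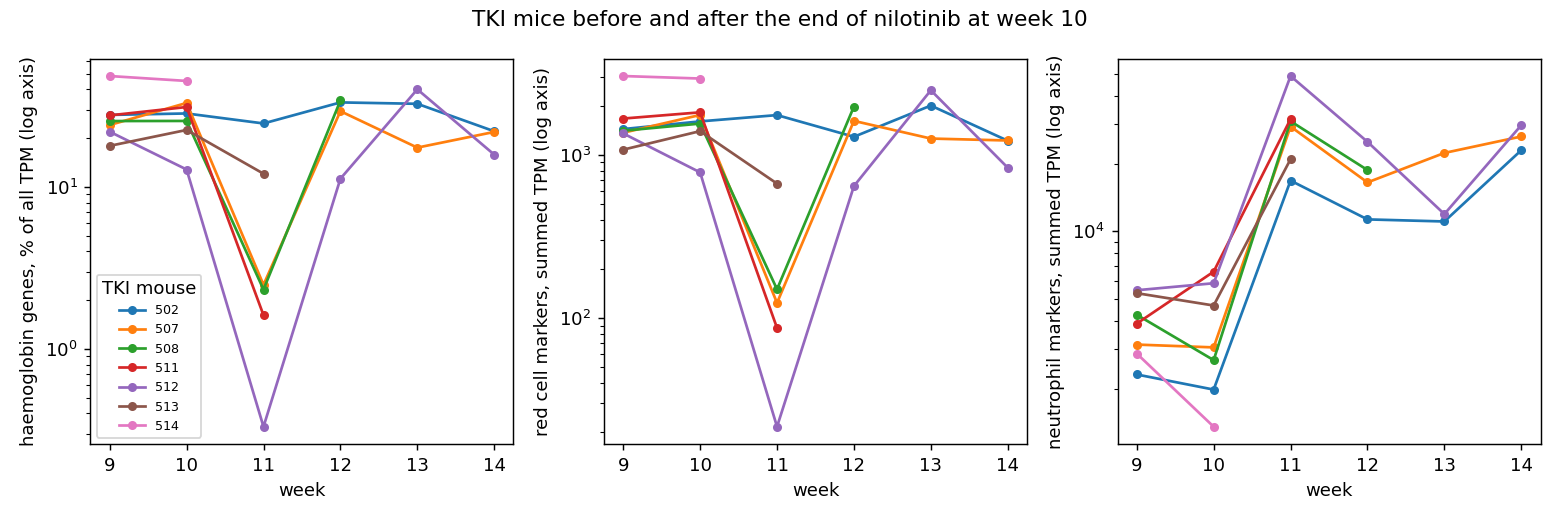
Haemoglobin share (percent of TPM), summed red cell markers and summed neutrophil markers (TPM) of each TKI mouse from week 9 to week 14, on log axes, 1 line per mouse. Mouse 512 reaches 0.331% and mouse 502 stays at 24.6% at week 11, and the 4 mice sampled at week 12 hold 11.2% to 34.2%.

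CML mice did not share this step, with changes of 0.51 ± 0.61 and 0.47 ± 0.65 in alpha and beta from week 10 to week 11 (5 mice, adjusted p = 0.477 and 0.54). TKI minus CML was -3.44 ± 0.83 for alpha (adjusted p = 0.00211) and -3.48 ± 0.88 for beta (adjusted p = 0.00306), and 6 of 6 members were called lower, where 2.82% of genes were. The comparison was chosen after the week 11 values had been seen, and it passed under every alternative tried, with adjusted p between 0.000143 and 0.0133.

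Other red cell genes fell with haemoglobin at week 11, where 9.14% of all genes tested were called lower. Of 15 membrane genes 14 fell, with a median of -1.09 against 0.23 for all genes, among them Epb41 (a spectrin-actin linker) at -2.002 ± 0.34 and Dmtn (dematin) at -1.11 ± 0.21. Of 8 partners and enzymes 6 fell, among them the peroxidase gene Prdx2 at -1.18 ± 0.23. Of 8 reticulocyte maturation genes 7 fell, with Ube2l6 at -2.51 ± 0.43 and the ubiquitin-conjugating enzyme gene Ube2o at -1.63 ± 0.29. Of 9 haem synthesis genes 3 fell and 2 rose. Alas2, the first enzyme of erythroid haem synthesis, was at -2.91 ± 0.58 and Fech, the last, at -2.58 ± 0.48. Slc25a37, the mitochondrial iron importer, was at -2.10 ± 0.42.

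Neutrophil RNA moved the other way. All 8 neutrophil markers rose, with a median of 2.74, including the granule gene Ngp at 3.47 ± 0.23. The median of all genes tested was 0.23, and this count is not set against the share of all genes called higher. The summed level of the 8 markers was 1358 to 6626 TPM in the 7 week 10 libraries and 16812 to 48960 TPM in the 6 week 11 libraries, with no overlap. The red cell marker sum was 21.6 TPM in mouse 512, 87.0 in 511, 124 in 507, 150 in 508, 667 in 513 and 1756 in 502, and the 4 mice with the lowest haemoglobin share had the 4 lowest sums. Most of this sum is 1 gene, since over all libraries Alas2 had a mean of 1921 TPM and the sum a mean of 2128 TPM. The part of neutrophil RNA and of fewer red cells was not tested.

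The share was back near its week 10 level in the 4 TKI mice with a week 12 library. At week 12 the share was 33.2% in 502, 29.3% in 507, 34.2% in 508 and 11.2% in 512, against week 10 values of 28.4%, 33.0%, 25.5% and 12.8%, although the neutrophil marker sum was still 11306 to 24992 TPM. Over weeks 11 to 18 against weeks 1 to 6, alpha fell by 1.49 ± 0.33 and beta by 1.51 ± 0.32 in TKI (adjusted p = 0.000956 and 0.000796), 6 of 6 members being called lower where 8.77% of genes were, but over weeks 12 to 18 the changes were 0.05 and 0.06 (adjusted p = 0.86 and 0.832). From week 10 to the last library the changes were -0.60 ± 0.29 and -0.57 ± 0.29 (adjusted p = 0.108 and 0.13), and 0 of 6 members passed (2 before adjustment), where 30.5% of genes passed. In this fit limma took the SE wholly from the trend over all genes and not from the spread of these mice. With no mouse block the SE was 0.68 for each sum (limma adjusted p = 0.535 and 0.561). The lowest change of a mouse was -4.30 for alpha in mouse 511, whose last library was that of week 11. Over the mice with a library after week 11 the changes were 0.42 and 0.42 (adjusted p = 0.327 and 0.324), and with a batch term over all 6 mice they were -1.11 and -1.06 and passed (adjusted p = 7.12e-05 and 0.000155). In that fit the mice of batch 2022_B, 511 and 513, ended at week 11 and those of 2022_A later. Batch and last week therefore cannot be told apart there.

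Return of tetracycline in the TOTO cohort was followed by the highest mean haemoglobin share of that cohort, 66.3% at week 7. All 4 mice reached 62.0% to 70.4% at week 7, 1 week after the switch, and all were lower again at week 8. The shares went from 70.4% to 37.5% in 476, from 62.0% to 39.5% in 482, from 69.0% to 18.7% in 483 and from 63.7% to 30.8% in 545. The B cell marker sum went from 47.5 to 211 TPM at week 7 to 857 to 1486 TPM at week 8, within the range of the low week 0 libraries, and its part in the step was not tested. Week 8 minus week 6 was -0.42 ± 0.32 for alpha and -0.52 ± 0.33 for beta (adjusted p = 0.226 and 0.148). After rescaling by median-ratio size factors this step was -1.59 and -1.68 (adjusted p = 0.00935 and 0.00775), and relative to the TPM of genes other than haemoglobin and Rn7s2 it was -1.17 and -1.26 (adjusted p = 0.0245 and 0.0191), all of which passed. By week 18 the share was 46.0% to 57.4%, and week 18 minus week 6 was 0.35 ± 0.32 and 0.27 ± 0.32 (adjusted p = 0.396 and 0.517), with 0 of 6 members passing (1 before adjustment), where 24.7% of genes passed. In the week 18 fit limma also took the SE wholly from the trend over all genes. The alpha changes of the mice ranged from -0.21 in 476 to 1.08 in 545.

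Untreated CML mice ended at widely different shares, as they had begun. The last share was 8.91% in 480 and 14.0% in 541, both at week 18, and 12.9% in 477 at week 7. It was 58.2% in 484 at week 11, 62.0% in 542 at week 16 and 53.7% in 487 at week 18. From week 0 to the last library alpha changed by 0.23 ± 0.52 and beta by 0.16 ± 0.52 (adjusted p = 0.779 and 0.844), and 0 of 6 members passed, also before adjustment, where 9.82% of genes passed. The SE rested mostly on the trend over all genes, with 285 prior against 7 residual degrees of freedom. Over the 6 CML mice the SD of the alpha change was 1.99. CML minus control was -0.39 ± 0.91 and -0.48 ± 0.91. From week 1 the CML changes were -1.05 ± 0.42 and -1.17 ± 0.45 (adjusted p = 0.122 and 0.105), and CML minus control was -0.79 ± 0.73 and -0.88 ± 0.77. Male minus female over weeks 0 to 6 was -0.19 ± 0.10 for alpha and -0.25 ± 0.11 for beta (adjusted p = 0.136 and 0.116), and 0 of 6 members passed (2 before adjustment; 0.0469% of genes passed).

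**Figure D3:**
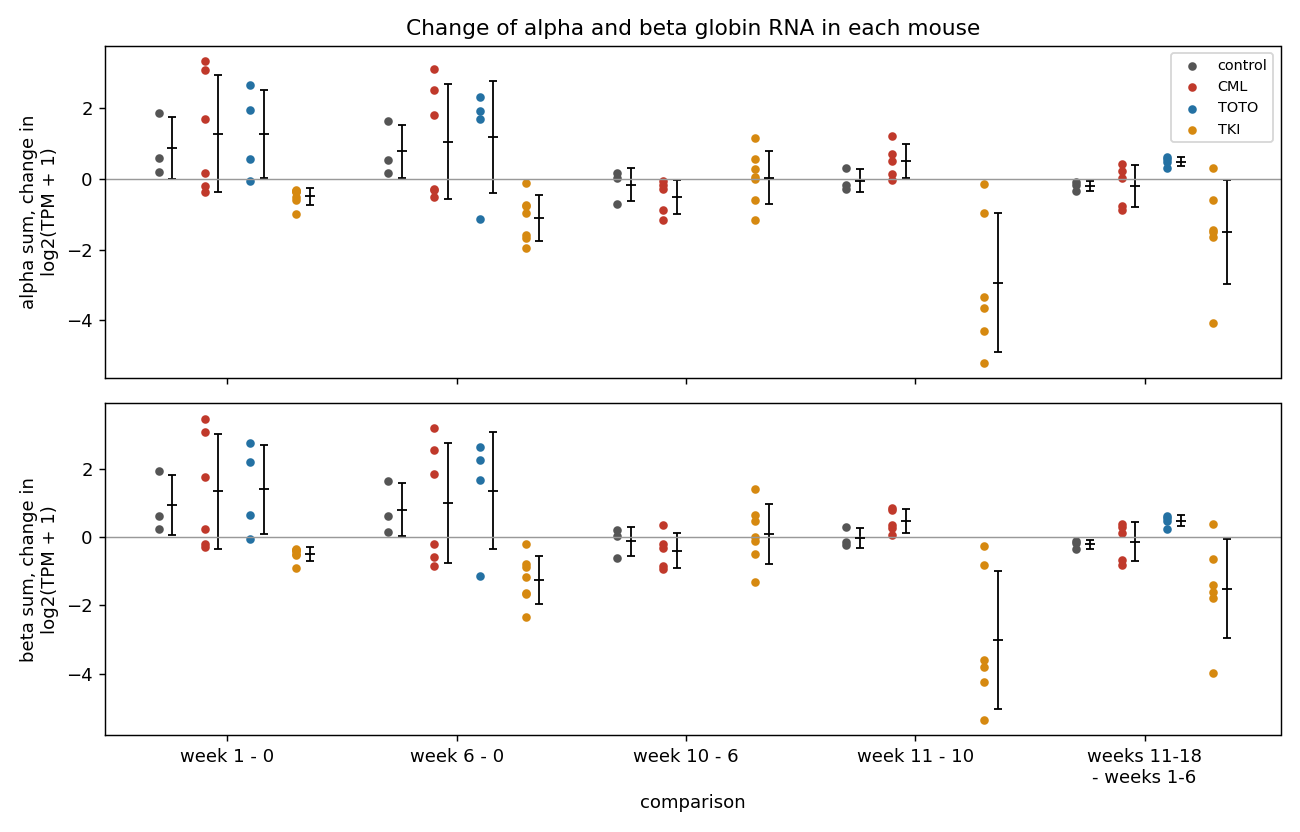
Change of the alpha sum (top) and beta sum (bottom) in log2(TPM + 1) in each mouse for 5 comparisons of weeks, 1 point per mouse coloured by cohort, with the mean and SD beside the points. The TKI points lie below 0 in 7 of 7 mice from week 0 to week 6 and in 6 of 6 from week 10 to week 11.

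The theta copies did not keep a constant ratio. At week 0 Hbq1a made up a similar share of the theta sum in every cohort, 43.8% ± 7.99 in control (n = 3), 39.4% ± 4.73 in CML (n = 6), 44.9% ± 4.33 in TOTO (n = 4) and 41.5% ± 6.70 in TKI (n = 7). In weeks 3 to 6 it was 47.0% ± 3.30 in control mice, 23.6% ± 1.59 in TOTO, 23.7% ± 3.54 in TKI and 31.5% ± 9.19 in CML. All 11 TOTO and TKI mice, at 16.4% to 26.5%, lay below the 3 control mice, at 45.1% to 50.8%. Among the 6 CML mice, 5 had 21.2% to 31.3%, and mouse 487, with its fusion transcript near 0, had 48.8%, within the control range.

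In TOTO the share returned within a week of tetracycline. It went from 21.8% at week 6 to 43.3% at week 7 in mouse 476, from 18.3% to 48.2% in 482, from 23.0% to 39.6% in 483 and from 26.8% to 46.7% in 545. The 4 mice then stayed at 36.9% to 46.0% on average over weeks 12 to 18, overlapping the control mice at 42.1% to 44.0%. In TKI the share was 30.6% ± 1.39 over the nilotinib weeks 7 to 10, higher than in weeks 3 to 6 in 7 of 7 mice. It was 4.49% to 19.4% at week 11 and 20.1% to 21.7% over weeks 12 to 18 in the 4 mice then sampled. Both theta copies were called lower from week 10 to week 11. Among all TKI libraries the lowest value was 0.0357 TPM for Hbq1a and 0.413 TPM for the theta sum. Read depth is unknown, so no limits can be set for the week 11 shares, and a further fall then cannot be judged from them. In CML the share was 27.1% ± 10.7 over weeks 7 to 10 (n = 6) and 19.8% ± 8.11 over weeks 12 to 18 (n = 4). Mouse 487 did not keep its control-like share. It had 44.5% over weeks 7 to 10 and 31.5% over weeks 12 to 18, below the 3 control mice in those later weeks. The last libraries of mice 480 and 541 held 11.2% and 13.6%.

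**Figure D4:**
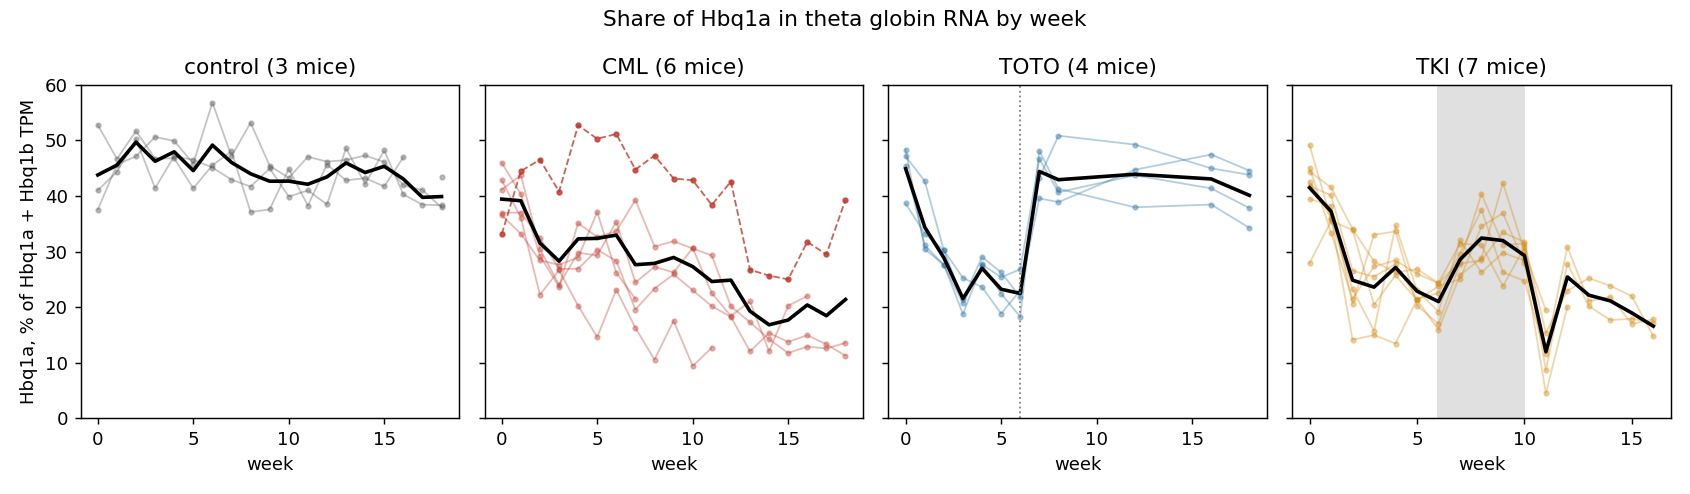
Hbq1a as percent of the Hbq1a plus Hbq1b TPM (vertical axis) by week in the 4 cohorts, with a thin line per mouse, a thick line for the mean, a dashed line for CML mouse 487, a dotted vertical line at the return of tetracycline and grey shading over the nilotinib weeks. Control mice averaged 47.0% and TOTO and TKI mice 23.6% and 23.7% in weeks 3 to 6, and TOTO mice averaged 43.7% over weeks 7 and 8.

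Exact tests of this share were added after its values had been seen, over 15 comparisons. From weeks 3 to 6 to weeks 7 to 10 the TKI mice changed by 11.3 percentage points more than CML mice (exact permutation test, 7 and 6 mice, two-sided adjusted p = 0.00874) and the TOTO mice by 24.5 points more than CML mice (4 and 6 mice, exact adjusted p = 0.0357). Both unadjusted p-values are the smallest these numbers of mice allow, and without CML mouse 487 the differences were 11.3 and 24.5 points. From week 0 to weeks 3 to 6 the difference between Tet-off and control mice was -18.4 points (17 and 3 mice, exact adjusted p = 0.05, not below the threshold), and 16 of 17 Tet-off mice were lower. Without control mouse 489 this difference was -13.3 points (unadjusted exact p = 0.105). The change within TKI was -17.8 ± 7.26 points (SD, 7 of 7 lower, exact sign-flip test, adjusted p = 0.05), and within TOTO -21.4 ± 4.42 points (4 of 4 lower), where 4 mice cannot give an unadjusted p below 0.125. From week 1 the changes were -13.6 points in TKI, -10.8 in TOTO, -7.67 in CML and 1.43 in control mice, and Tet-off minus control was -12.3 points (unadjusted exact p = 0.00351).

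The copies moved unequally. The level of Hbq1a went from 14.7 to 4.98 TPM between week 0 and weeks 3 to 6 in TKI (means of 7 mice), while Hbq1b went from 20.9 to 16.9 TPM. In TOTO Hbq1a went from 6.03 TPM in weeks 3 to 6 to 10.3 TPM in weeks 7 and 8 as Hbq1b went from 20.5 to 13.2 TPM. In the gene-wise test Hbq1a fell by 1.72 ± 0.36 from week 0 to week 6 in TKI (adjusted p = 0.000454), and Hbq1b changed by -0.52 ± 0.38 (adjusted p = 0.284). Over weeks 11 to 18 against weeks 1 to 6, Hbq1a fell by 0.86 ± 0.26 in 5 of 5 CML mice (adjusted p = 0.00752) and was the only member called lower there, where 52.9% of genes were. In TOTO it rose by 0.80 ± 0.29 in 4 of 4 mice (adjusted p = 0.0218), the only member called higher, where 47.8% of genes were. Hbq1b changed by 0.10 ± 0.27 and -0.14 ± 0.31 in the same fits (adjusted p = 0.788 and 0.704). The median change of all genes tested there was -0.37 in CML and 0.35 in TOTO, the same direction as Hbq1a.

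From week 6 to week 8 in TOTO, Hbq1b fell by 1.03 ± 0.35 in 4 of 4 mice (adjusted p = 0.00992), the only member called lower, where 3.13% of genes were. In the nilotinib weeks Hbq1a in TKI minus CML was 0.66 ± 0.18 (adjusted p = 0.0463), the only member called higher, where 0.67% of genes were.

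Cell markers and the fusion transcript moved with the theta share. Over 297 libraries its Spearman correlation was -0.72 with the fusion transcript, -0.69 with the neutrophil marker sum, -0.50 with the platelet and -0.49 with the erythroid precursor marker sum, 0.52 with the B cell marker sum and 0.45 with the haemoglobin share, a description over libraries that share mice. The mean neutrophil sum was 8505 TPM in TKI and 8015 TPM in TOTO in weeks 3 to 6, and 772 TPM in TOTO over weeks 7 and 8. Over weeks 12 to 18 the TKI mean was 20449 TPM. The part of other cells in theta RNA was not tested. The share did not separate the labelled batches, since over all weeks control mouse 488 of batch 2022_A had 43.2% and control mice 490 and 489 of batch 2021_E had 44.5% and 46.1%.

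The alpha to beta ratio followed the labelled batch rather than the cohort. The 4 mice of batch 2021_E had mean ratios of 1.11 to 1.21, and the 16 mice of 2022_A and 2022_B had 0.826 to 0.976, with no overlap. Mice 489 and 490 of the control cohort, in 2021_E, had 1.21 and 1.17, and control mouse 488, in 2022_A, had 0.885. CML mice 480 and 541 of 2021_E had 1.12 and 1.11, 477 and 484 of 2022_A 0.976 and 0.857, and 487 and 542 of 2022_B 0.865 and 0.886. Among libraries, 0 of 222 outside 2021_E exceeded the 2021_E median of 1.16. Hba-a1 also took a higher part of the alpha sum in 2021_E, 35.3% to 36.04% by mouse, than in the others, 29.7% to 31.9%. The Hbb-bs part of the beta sum overlapped, with medians of 85.8% and 87.2%. All TKI and TOTO mice are in the 2022 batches, so a ratio compared between cohorts without regard to batch mixes both.

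**Figure D5:**
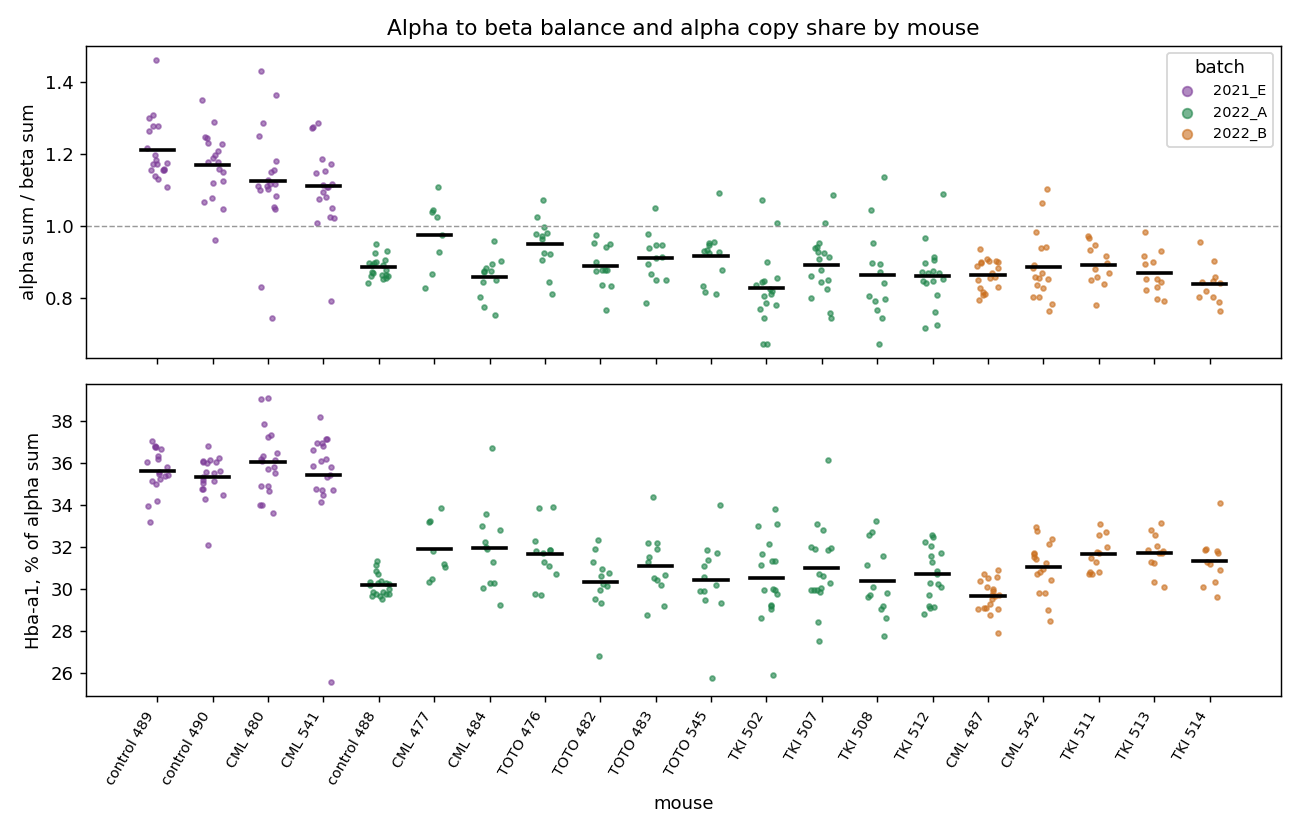
Alpha to beta TPM ratio (top) and Hba-a1 as percent of the alpha sum (bottom) in each library, 1 point per library, grouped by mouse and coloured by labelled batch, with a bar at each mouse mean. The 4 mice of 2021_E have mean ratios of 1.11 to 1.21 and the other 16 have 0.826 to 0.976.

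Within mice no tested change of the ratio passed adjustment. The step to week 11 in TKI was not among the comparisons tested. At week 11 the ratio was 0.805 to 1.14 in the 6 mice. Of the mice with a share under 5%, 508 and 512 had their highest ratio there, 1.14 and 1.09. Mice 507 and 511 lay within the range of their other weeks. From the week before, alpha fell less than beta in 502, 507, 508 and 512, and more in 511 and 513. Over 22 comparisons of the log2 ratio, with exact sign-flip tests within a cohort and exact permutation tests between cohorts, the lowest adjusted p was 0.431. The change in TKI from week 0 to week 6 was 0.13 ± 0.14 (SD, higher in 6 of 7 mice, unadjusted exact p = 0.0312, adjusted p = 0.431). TKI minus CML over the nilotinib weeks was 0.11 (7 and 5 mice, unadjusted exact p = 0.0391, adjusted p = 0.431). The first week in Tet-off mice gave -0.05 ± 0.10 (17 mice, lower in 11, unadjusted exact sign-flip p = 0.0646, adjusted p = 0.474).

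Across all libraries the copies of a pair rose and fell together, with Spearman correlations of 0.953 for Hba-a1 with Hba-a2 and 0.946 for Hbb-bs with Hbb-bt, and 0.946 for Hba-a2 with Hbb-bs, which lie on different chromosomes. Hbq1a with Hbq1b had 0.527, the lowest of the 15 pairs. Among 5366 genes with a mean of at least 5 TPM, those most like the haemoglobin sum were Smim10l3 (0.926), Alas2 (0.925), Slc25a39 (0.918), Dcaf12 (0.892) and Isca1 (0.879). After rescaling each library by median-ratio size factors they were Alas2 (0.980), Smim10l3 (0.976), Isca1 (0.975), Slc25a39 (0.972) and Bpgm (0.970). Alas2 is the erythroid 5-aminolevulinate synthase, Slc25a39 a mitochondrial glutathione carrier, Isca1 an iron-sulphur assembly protein and Bpgm the enzyme that makes 2,3-bisphosphoglycerate, which lowers the oxygen affinity of haemoglobin. The median over all genes was -0.635 in the deposited TPM and -0.048 after rescaling, and libraries share mice and the fixed TPM sum, so these are descriptions.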

How the data were processed

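RNA of 298 blood libraries was sequenced after ribosomal RNA depletion, with strand-specific libraries and a RIN above 4, per the labels' protocols. The submitters' processing notes name STAR, Salmon and GRCm39, with versions not given in the sources used here. The authors deposited 1 table of TPM for 14605 genes, which kept genes reaching 1 TPM in 5 samples, per the table's name. TPM keep no read depth, so depth per sample is unknown and no counting intervals are given. Multi-mapped reads of near-identical copies are divided by such estimators, hence the sums.

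Samples were grouped by cohort and week from their titles, and the same mouse number marks the same animal, which is the pairing used in every fit. Values were tested as log2(TPM + 1) differences per mouse with limma 3.58.1 (R 4.3.3, moderated with a mean trend), for genes with a mean of at least 1 TPM, with Benjamini-Hochberg adjustment over all genes tested and a threshold of 0.05. A fold on this scale understates changes of low genes. The alpha, beta and theta sums replaced the copies in one fit, and the copies were tested in another. The alpha to beta ratio and the Hbq1a share used exact tests (Python 3.11.15, scipy 1.17.1). The scripts were tested on simulated data. Named genes are all members, the 2 genes with the smallest p of each list, and the 5 most correlated with the haemoglobin sum by each scaling, of which only some are printed, and 1 gene is not reported here. Members, lists and comparisons were chosen with earlier results of these data known, and the week 11 comparison, the contrasts between Tet-off cohorts, and the Hbq1a share tests were added after their values were seen. Alternatives were another pseudocount, no filter, other scalings, a batch term, no mouse block, neighbouring weeks and leaving out each mouse. Mice with no library at a week are left out of that comparison. Promoter windows came from RefSeq (GRCm38.p6), in which all 6 members matched by symbol.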

Additional observations from a re-analysis of the deposited data

Results flagged for a closer look

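A mouse far from the other mice of its group was looked for in 42 groups of haemoglobin shares, 44 of changes, 3 of ratios and 9 of theta shares, of 4 to 10 mice each, and chance flags about 1 in 20 groups. TKI mouse 514 held 48.4% haemoglobin at week 9, the other 6 mice 17.9% to 27.8%. TOTO mouse 545 held 55.1% at week 0, the other 3 mice 9.63% to 13.8%. TOTO mouse 476 held 19.2% at week 4, the others 44.2% to 47.6%. From week 0 to week 1 TKI mouse 511 changed by -0.998 in alpha, the others by -0.60 to -0.31, and by -0.92 in beta, the others by -0.54 to -0.36. From week 10 to its last library, at week 11, the same mouse changed by -4.30 in alpha, the others by -0.97 to 0.96, and by -4.24 in beta, the others by -0.83 to 0.78.

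Cohorts differed by a test of the difference in the following. From week 0 to week 6, TKI minus CML was -2.17 for alpha and -2.24 for beta, and TKI minus TOTO was -2.30 and -2.60. From week 10 to week 11, TKI minus CML was -3.44 and -3.48. For the Hbq1a percent of the theta sum from weeks 3 to 6 to weeks 7 to 10, TKI minus CML was 11.3 and TOTO minus CML 24.5 percentage points. TOTO had only weeks 7 and 8 in the later window.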

How the results depend on the processing

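Of 573 values recomputed under other settings, 506 kept their direction and side of the threshold, and of 1204 leaving out 1 mouse, 1127 did. The cause of the exceptions was not tested. CML alpha had 1.05 with pseudocount 0.1 (adjusted p = 0.056), 1.05 with no filter (0.0619), 1.05 with a batch term (0.051), 1.71 relative to the TPM of genes other than haemoglobin and Rn7s2 (0.0605), 0.69 at week 5 (0.177) and reversed to -0.23 from week 1 (0.693). TOTO alpha had 1.19 with pseudocount 0.1 (0.0586) and 1.19 with no filter (0.0672), TOTO beta 1.35 with no filter (0.0543), and from week 1 they reversed to -0.079 and -0.040. TKI alpha had -1.11 with no filter (0.0559), -0.98 with a batch term (0.139), -0.79 without Rn7s2 (0.0929) and -0.62 from week 1 (0.218), and TKI beta -1.07 (0.12), -0.92 (0.0616) and -0.75 (0.154) under the last 3. From week 1, TKI minus CML was -0.39 and -0.40, and TKI minus TOTO -0.54 and -0.71.

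With no replicate block, CML induction beta passed at 0.99 (adjusted p = 0.0357), and TOTO week 8 minus week 6 passed at -0.42 and -0.52 (0.0415 and 0.0246). No other call of a haemoglobin sum changed without the block, while the ratio change in TKI had 0.13 (unadjusted exact p = 0.067). That TOTO step was -1.59 and -1.68 after rescaling and -1.17 and -1.26 relative to those other genes, and passed under both. After nilotinib, a batch term gave -1.11 and -1.06, which passed (7.12e-05 and 0.000155), but batch and last week cannot be told apart there. Over weeks 12 to 18 TOTO had 0.49 and 0.47 (0.0191 and 0.0275), and TKI reversed to 0.048 and 0.059. From week 1 the TKI ratio change was 0.13 (unadjusted exact p = 0.0781). Haemoglobin shares without Rn7s2 were 57.8% in CML, 50.7% in TKI, 58.4% in TOTO and 68.1% in control.

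Values that passed in neither setting also changed sign. From week 1, induction was -0.35 and -0.44 in Tet-off and -0.10 and -0.13 in control mice, CML beta -0.34, and the change to the last library -1.05 and -1.17 in CML and -0.26 and -0.30 in control mice. After nilotinib, mice with a library after week 11 had 0.42 and 0.42. The nilotinib weeks in TKI had 0.0014 for alpha with a batch term, and -0.025 and -0.062 for beta after rescaling and relative to other genes. After rescaling, TOTO week 18 was -0.22 and -0.30, its beta difference from control mice -0.027, and late CML 0.32 and 0.38. Late CML beta was 0.0094 with a batch term and 0.0029 relative to other genes, and late TOTO -0.32 and -0.26 with a batch term. Late CML minus control was -0.19 and -0.057 over weeks 12 to 18, and -0.057 for alpha without the week 17 library of control 490.

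Leaving out 1 mouse gave these ranges. Induction in CML had 0.64 to 1.37 for alpha, no longer passing without 480, 484 or 487, and 0.55 to 1.36 for beta, passing without 541, 477, 542 or TOTO 545. TOTO had 0.82 to 1.97 and 0.93 to 2.19, not passing without 476, 482 or 483, and TKI -1.28 to -0.97 and -1.42 to -1.06, not passing without 502, 507 or 511. First week beta had 0.41 to 0.69 (passing without 511), after nilotinib alpha -0.91 to 0.14 (passing without 502), TOTO week 18 alpha 0.10 to 0.53 (passing without 476), TOTO week 8 beta -0.80 to -0.33 (passing without 545), and sex -0.23 to -0.14 and -0.31 to -0.16 (passing without 513). The ratio had -0.059 to -0.033 in the first week, 0.089 to 0.16 in TKI induction, 0.074 to 0.14 for the nilotinib weeks and -0.12 to -0.047 for late CML minus control. The Hbq1a share difference between Tet-off and control mice had -23.8 to -13.3 points. Ranges that crossed 0 were, for alpha and beta, -0.30 to 0.68 (without 484 or 487) and -0.42 to 0.63 (the same) in CML to the last library, -0.92 to 0.099 (without 489, 541 or 477) and -1.06 to 0.0074 (489) in CML minus control there, and -0.15 to 0.23 (502, 507 or 511) and -0.14 to 0.32 (507 or 511) in TKI week 10 minus week 6. They were -0.056 to 0.043 (512, 513 or 514) and -0.047 to 0.068 (502, 507 or 511) over the nilotinib weeks, and -0.15 to 0.18 (490, 484, 487 or 542) and -0.051 to 0.25 (484 or 542) in late CML minus control. For beta alone they were -0.034 to 0.31 (487) in Tet-off induction, -0.84 to 0.17 (511, as for alpha) after nilotinib, -0.0011 to 0.52 (545) at TOTO week 18 and -0.27 to 0.036 (541) in late CML. The ratio had -0.00011 to 0.11 (542) in TKI minus CML week 10 minus week 6 and -0.034 to 0.039 (508) in late TKI. The Hbq1a share had -3.85 to 0.869 points (482) in TOTO and -1.86 to 0.883 (489) in control mice over weeks 12 to 18 minus weeks 7 to 10, and -1.84 to 8.63 (489) in control mice over weeks 3 to 6 minus week 0. Depth is unknown, so limits for the theta genes at a few TPM cannot be set.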
